A study of Mus musculus with 12 samples.

Results

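The genes examined were those that encode the initiation and elongation factors of cytoplasmic translation, together with the proteins named after them that bind or modify these factors. They were defined by symbol, as protein-coding genes of chromosomes 1 to 19 in the GENCODE M21 annotation (mouse build mm10, GRCm38). The symbol had to begin with Eif or Eef followed by a digit, and 65 of 20807 autosomal protein-coding genes met this rule. The rule itself was chosen with earlier results of these data known. The measurement was ChIP-seq for YY1, a zinc-finger transcription factor that binds near the start sites of many genes, in lineage-negative (Lin-) bone marrow cells. All 4 libraries came from 3-month-old female mice of the strain 129Sv4/Jae x B6, 2 from wild type (WT) and 2 from XistΔ/Δ, in which floxed Xist was deleted by the Vav-iCre transgene, whose Cre recombinase is driven by sequences of the blood gene Vav1. The labels do not say whether WT mice carried the transgene or how many mice stand behind a library. Lin- cells are the mix of stem and progenitor cells left once cells with the markers CD11b, Gr-1, CD3ε, B220, CD8a, CD4 or TER-119 have been depleted, so these peaks are an average over cell types. The 8 further samples of the series were not analysed here.

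Translation starts when eIF2 brings the initiator tRNA to the small ribosomal subunit and the eIF4 factors bring the capped mRNA, with eIF3 as the platform that holds both together. eIF1, eIF1A and eIF5 then monitor scanning for the start codon, eIF2B recharges eIF2 with GTP, and stress kinases stop this recharging by phosphorylating eIF2α. In elongation, eEF1A delivers aminoacyl-tRNAs, its eEF1B partners exchange its nucleotide, and eEF2 moves the ribosome along the mRNA. Dividing progenitor cells depend on this machinery for growth.

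For WT, 9553 peaks were listed in replicate 1 and 15933 in replicate 2, and for XistΔ/Δ 10075 and 18113. Both replicate 2 libraries were deeper, with 50.0 and 59.5 M tags (aligned reads as HOMER counts them) against 24.9 and 23.1 M in the replicate 1 libraries, and depth moves both the number and the width of peaks. A peak over the start of Xist itself was 3083 and 3222 bp wide in the WT libraries and was not called in either XistΔ/Δ library, as the labels say. The score column is 1 for every peak, so the width of a peak was the only measure of its size, and 501 bp was the most frequent width in each list. A promoter peak was a peak within 3000 bp of any annotated transcript start of the gene. The widest of them stood for the gene, and its width was also expressed as a percentile among all peaks of the same library.

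Translation factor genes carried YY1 promoter peaks far more often than autosomal genes at large. A promoter peak was called at 55 and 58 of the 65 genes in WT and at 55 and 60 in XistΔ/Δ, which is 84.6%, 89.2%, 84.6% and 92.3%. Over all 20807 genes the same shares were 40.8%, 49.0%, 40.7% and 50.3%. All 4 libraries had a peak at 53 genes (81.5%), against 37.1% of all genes. At least 2 libraries had a peak at 59 genes (90.8%, background 48.4%), and 5 genes (7.69%) had no peak in any library, against 48.3% of all genes. The deeper libraries alone gave the peak at 2 genes (3.08%, background 4.3%). Most of the factors were thus bound in every library, and the plot by number of libraries shows that intermediate cases were rare.

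**Figure D1:**
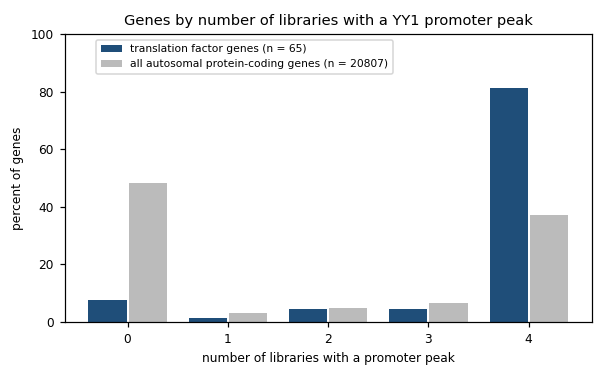
Percent of genes (y axis) with a YY1 promoter peak in 0, 1, 2, 3 or 4 libraries (x axis), for the 65 translation factor genes (blue) and all 20807 autosomal protein-coding genes (grey). Of the translation factor genes 81.5% had a peak in all 4 libraries and 7.69% in none, against 37.1% and 48.3% of all genes.

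Some properties of these genes moved with this share. The median number of transcript starts was 4 per translation factor gene and 3 per autosomal gene, and more starts give more places for a peak to count. With only the 5′-most start of each gene, 51 of 65 genes (78.5%) had a peak in all 4 libraries, against 34.9% of all genes. Among genes whose 5′-most start lies in 1001 bp with over 55% GC and an observed-to-expected CpG ratio over 0.65, the share was 39 of 44 (88.6%), against 66.2% of 7469 genes. Compared within CpG-rich starts, the difference from other genes was therefore smaller but present. Expression of the genes in these cells was not used here, and its part in the result was not tested.

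Peaks at these genes were also wide for their library. The median width at bound genes was 1287 and 1580 bp in WT against 1100 and 1639 bp in XistΔ/Δ, against 1024, 1314, 902 and 1296 bp at all bound genes. In percentiles this was 74.6, 79.0, 75.1 and 83.2, against 59.7, 69.7, 61.1 and 72.1. Among genes bound in all 4 libraries, the median of the mean percentile was 77.4 for the 53 translation factor genes and 69.5 for all 7709 genes, and 13 of the 53 (24.5%) had a mean percentile over 90, against 15.4%. Eif4enif1 is among the 13 through a region that covered none of its own starts. The widest peak was taken over all starts of a gene, with a median of 4 starts here against 3, which was not adjusted for.

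**Figure D2:**
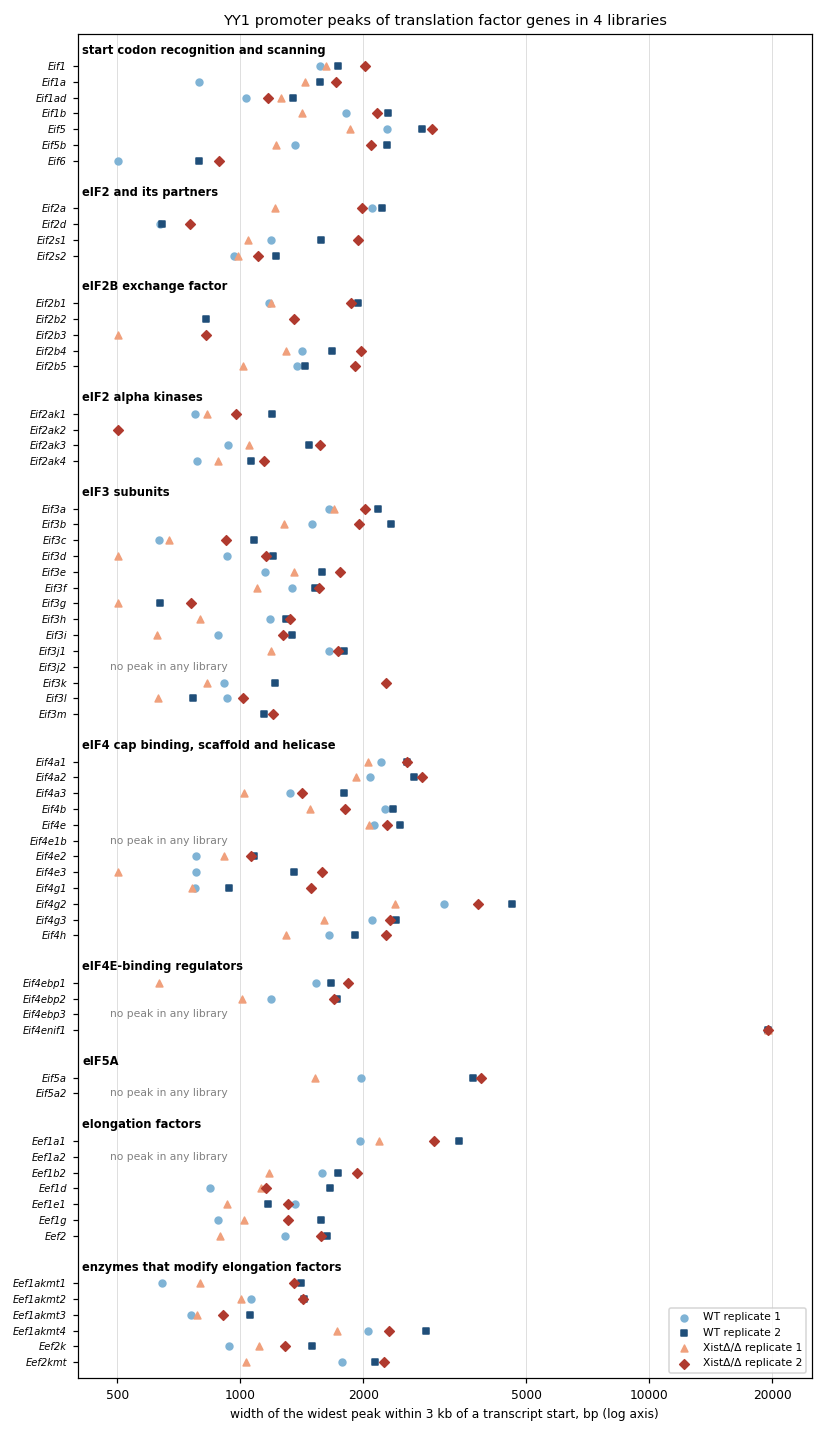
Width in bp (x axis, log scale) of the widest YY1 promoter peak of each translation factor gene (rows, grouped by role) in WT replicate 1 (light blue circles), WT replicate 2 (dark blue squares), XistΔ/Δ replicate 1 (orange triangles) and XistΔ/Δ replicate 2 (red diamonds). The eIF4 group holds many of the wide peaks, the eIF3 group many of the narrow ones, and within most genes the replicate 2 symbols lie to the right of the replicate 1 symbols.

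The group labelled start codon recognition and scanning also holds Eif1ad, Eif5b and Eif6. It had a peak in all 4 libraries at 6 of 7 genes, with a median mean percentile of 86.6. Eif5, which triggers GTP hydrolysis by eIF2 at the start codon, had peaks of 2285 and 2777 bp in WT against 1857 and 2950 bp in XistΔ/Δ, over 12 of its own transcript starts. Eif1b, a close relative of Eif1, had 1818 and 2292 bp in WT against 1413 and 2161 bp in XistΔ/Δ. In both genes the values of the genotypes overlapped, although Eif1b was narrower in XistΔ/Δ within both replicate numbers. Eif6, which keeps the large ribosomal subunit from joining too early, was the exception of the group. At its own starts a peak was called only in the replicate 2 libraries, 501 bp in WT against 854 bp in XistΔ/Δ. Its other peak, of 501 and 793 bp in WT against 885 bp in XistΔ/Δ replicate 2, lay at least 2863 bp from a start of Eif6 and covered a start of the neighbouring gene BC029722.

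The eIF2 group and its exchange factor were bound at most genes, but several peaks were narrow. Eif2s1, the α subunit that the stress kinases phosphorylate, had peaks of 1188 and 1573 bp in WT against 1046 and 1941 bp in XistΔ/Δ. Eif2a, a factor that can deliver initiator tRNA independently of eIF2, had the widest peaks of the group, 2097 and 2225 bp in WT against 1214 and 1981 bp in XistΔ/Δ. Eif2d, another alternative tRNA-delivery factor, had 636 and 642 bp in WT, no peak in XistΔ/Δ replicate 1 and 755 bp in XistΔ/Δ replicate 2. Of the eIF2B subunits, Eif2b1, Eif2b4 and Eif2b5 had a peak in all 4 libraries, with mean percentiles from 77.4 to 83.7. Eif2b2 had a peak only in the replicate 2 libraries, 822 bp in WT against 1353 bp in XistΔ/Δ. Eif2b3 had a peak in the XistΔ/Δ libraries alone. Of the stress kinase genes, Eif2ak1, Eif2ak3 and Eif2ak4 were bound in all 4 libraries with mean percentiles from 54.3 to 70.9, and their median of 55.8 was the lowest of the role groups. Eif2ak2, the kinase PKR that senses double-stranded RNA, had a single peak of 501 bp, in XistΔ/Δ replicate 2.

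Among the 14 eIF3 subunit genes, 11 had a peak in all 4 libraries, with a median mean percentile of 67.1 and a range from 44.6 to 90.3. Eif3a and Eif3b, which encode large core subunits, led the group. Eif3a had peaks of 1648 and 2170 bp in WT against 1694 and 2023 bp in XistΔ/Δ. Eif3b had 1494 and 2336 bp in WT against 1282 and 1947 bp in XistΔ/Δ. Among all translation factor genes bound in all 4 libraries, 3 of the 4 with the lowest mean percentile were also eIF3 subunits. Eif3l had 926 and 767 bp in WT against 630 and 1013 bp in XistΔ/Δ, Eif3c had 633 and 1077 bp in WT against 671 and 925 bp in XistΔ/Δ, and Eif3d, whose product can bind the cap itself, had 926 and 1204 bp in WT against 501 and 1154 bp in XistΔ/Δ. Eif3m had a peak only in the replicate 2 libraries, 1143 bp in WT against 1199 bp in XistΔ/Δ. Eif3g had none in WT replicate 1, 637 bp in WT replicate 2, and 501 and 759 bp in XistΔ/Δ. The genes of this group thus ranged from no peak, at Eif3j2 alone, to peaks above the 90th percentile. Eif3j1, of the same name stem, was bound in all 4 libraries, and 13 of the 14 genes had a peak in at least 2 libraries.

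The eIF4 genes had the widest peaks of the larger groups. They were bound in all 4 libraries at 11 of 12 genes, with a median mean percentile of 91.2. Eif4g2, a scaffold that lacks the site for eIF4E, had 3157 and 4620 bp in WT against 2395 and 3808 bp in XistΔ/Δ. Eif4a1 and Eif4a2 encode RNA helicases that unwind the 5′ end of mRNAs. Eif4a1 had 2212 and 2554 bp in WT against 2055 and 2557 bp in XistΔ/Δ. Eif4a2 had 2072 and 2654 bp in WT against 1916 and 2789 bp in XistΔ/Δ. For both helicases the values within a replicate number differed less between genotypes than the replicates of a genotype differed from each other. Eif4e, the cap-binding protein, had 2123 and 2459 bp in WT against 2060 and 2285 bp in XistΔ/Δ. The widest region of all bears on Eif4enif1, which encodes a transporter that binds eIF4E: a region of 19372 and 19543 bp in WT against 19492 and 19574 bp in XistΔ/Δ (chr11:3180637-3200288) lay 2104 bp from its nearest start and covered a start of the neighbour Sfi1. The width of this region differed little between the shallower and the deeper libraries. No input library was named for these peaks, and the part of copy number in this region was not tested. Over its own starts Eif4enif1 had a separate peak of 1318 and 2454 bp in WT against 1687 and 1993 bp in XistΔ/Δ.

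Of the elongation factor genes 6 of 7 were bound in all 4 libraries. Eef1a1 (chr9:78479466-78482891), the source of eEF1A in most cells, had 1957 and 3426 bp in WT against 2179 and 2972 bp in XistΔ/Δ, across 6 of its transcript starts. Eef2 had 1287 and 1631 bp in WT against 892 and 1576 bp in XistΔ/Δ. The eEF1B subunit gene Eef1b2 had 1584 and 1732 bp in WT against 1174 and 1930 bp in XistΔ/Δ. Both replicate 2 values, from the deeper libraries, exceeded both replicate 1 values in each of these 3 genes. Eif5a, whose product helps the ribosome through difficult stretches, had 1972 and 3711 bp in WT against 1524 and 3889 bp in XistΔ/Δ. All 6 genes of enzymes that modify elongation factors were bound in all 4 libraries. Eef1akmt4, a lysine methyltransferase of eEF1A, had the widest of them, 2051 and 2852 bp in WT against 1728 and 2304 bp in XistΔ/Δ, in a region that also covers a start of Alg3.

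The 5 genes without a peak were Eef1a2, Eif3j2, Eif4e1b, Eif4ebp3 and Eif5a2. Each has a relative of the same name stem that was bound in all 4 libraries, Eef1a1, Eif3j1, Eif4e, Eif4ebp1 and Eif4ebp2, and Eif5a. This comparison was chosen after the values were seen. Eef1a2 replaces Eef1a1 in adult muscle and neurons, and Eif4e1b is known from germ cells. The RefSeq promoters of Eef1a1 and Eef1a2 are shown because they belong to the best known of these pairs. Each is the 250 bases before the start, 5′ to 3′ on the minus strand, chr9:78481725-78481974 and chr2:181157016-181157265 in GRCm38, with every CG dinucleotide in capitals.
Eef1a1: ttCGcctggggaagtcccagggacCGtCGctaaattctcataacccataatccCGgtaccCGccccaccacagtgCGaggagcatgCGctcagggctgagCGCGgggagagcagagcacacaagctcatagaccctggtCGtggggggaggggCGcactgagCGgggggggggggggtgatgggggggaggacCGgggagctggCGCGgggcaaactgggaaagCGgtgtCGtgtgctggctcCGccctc
Eef1a2: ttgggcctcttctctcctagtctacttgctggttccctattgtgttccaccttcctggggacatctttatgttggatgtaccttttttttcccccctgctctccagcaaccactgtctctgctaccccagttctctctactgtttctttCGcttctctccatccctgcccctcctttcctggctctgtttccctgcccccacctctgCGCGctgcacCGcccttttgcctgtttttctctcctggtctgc
The bound Eef1a1 promoter has 18 CG dinucleotides and 68% GC, and the Eef1a2 promoter, with no peak, has 4 and 54%. Over 1001 bp around the 5′-most annotated start, Eef1a1 has 47.8% GC and a CpG ratio of 0.492, below the 59.4% and 0.535 of Eef1a2. For Eef1a1 that start (chr9:78489151) is not the start of the RefSeq promoter above. Only XistΔ/Δ replicate 2 had a peak over it. These comparisons therefore concern different starts of Eef1a1. In the 1001 bp window Eif4ebp3 has a ratio of 0.354, against 0.698 in Eif4ebp1 and 0.889 in Eif4ebp2, and Eif4e1b 0.169 against 0.618 in Eif4e. The other pairs were closer, with 0.802 in Eif3j2 against 0.932 in Eif3j1 and 0.800 in Eif5a2 against 0.812 in Eif5a. In that window the median CpG ratio was 0.840 (range 0.197 to 1.01) at the 53 genes bound in all 4 libraries. At the 5 genes without a peak the median was 0.535 (range 0.169 to 0.802). A CpG-rich start did not always go with a peak. Eif5a2 has 67.9% GC and a CpG ratio of 0.800 in that window and no peak.

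The peaks sat on the start sites. The peak nearest a start covered it at 53 of 55, 57 of 58, 53 of 55 and 59 of 60 bound genes in WT replicates 1 and 2 and XistΔ/Δ replicates 1 and 2, which is 96.4%, 98.3%, 96.4% and 98.3%. The shares over all bound genes were 92.4%, 93.4%, 92.4% and 93.6%. The median distance from start to peak centre was 70.5 and 11.5 bp in WT against 12.0 and 49.0 bp in XistΔ/Δ, where positive values lie inside the gene. Over all bound genes it was 23.5, 12.0, -1.0 and 5.0 bp. Between 91.7% and 96.4% of centres were within 500 bp of a start, against 89.1% to 92.3% at all bound genes. Only Eef1akmt3, an eEF1A methyltransferase and the remaining gene of the lowest 4, had promoter peaks that covered none of its starts in any library. They were 756 and 1054 bp wide in WT against 784 and 909 bp in XistΔ/Δ. The peak ended 31 bp from the start in the widest case and covered a start of Mettl1. The plot of peak spans also shows Eif4ebp1, a repressor of eIF4E, whose peak of 632 bp in XistΔ/Δ replicate 1 began 571 bp inside the gene, whereas peaks of 1528, 1669 and 1831 bp in the other libraries covered a start.

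**Figure D3:**
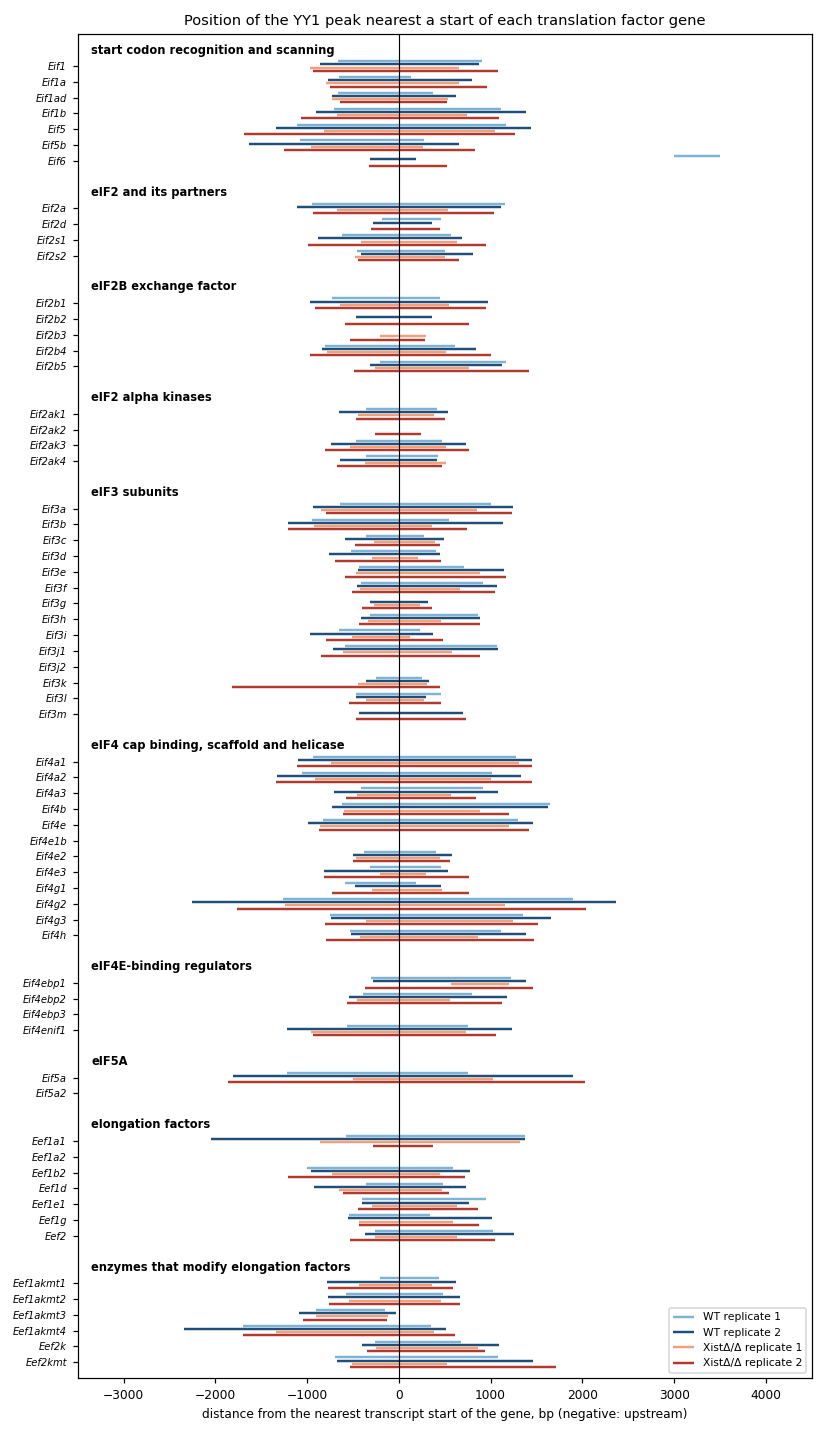
Span of the YY1 peak nearest a transcript start of each translation factor gene (rows, grouped by role), as distance from that start in bp (x axis, negative upstream, vertical line at the start), with 1 line per library in the colours of the legend. Nearly all spans cross the start, apart from Eef1akmt3 in all 4 libraries, Eif4ebp1 in XistΔ/Δ replicate 1 and Eif6 in WT replicate 1.

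A second promoter region was called in at least 1 library at 8 genes, Eef1a1, Eef1akmt3, Eef1d, Eef2, Eef2k, Eif4a1, Eif4enif1 and Eif6. For Eef1d, Eef2, Eif4a1, Eif4enif1 and Eif6 a further region covered a start of a neighbour, which was Naprt, Dapk3, Cd68, Sfi1 and BC029722, respectively. A start of a coding gene on the opposite strand lay within 1000 bp upstream at 14 of the 65 genes (21.5%, against 11.3% of all genes). Examples are Eef1b2 with Ndufs1 at 3 bp, Eif2b1 with Gtf2h3 at 9 bp, Eif3i with Tmem234 at 20 bp and Eif2a with Serp1 at 150 bp. Of these 14 genes, 13 (92.9%) were bound in all 4 libraries, against 40 of the 51 others (78.4%). Over all genes the same shares were 77.3% and 31.9%. A peak between such a pair cannot be assigned to either gene.

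The YY1 recognition sequence was searched in the peaks, as AAGATGG and its longer form AAGATGGC, which contains it, on both strands. In the 501 bp at the centre of the peak nearest a start in XistΔ/Δ replicate 2, the deepest library, AAGATGG was present at 6 of 60 translation factor genes (10.0%) and at 11.8% of 10457 bound genes. The longer form was present at 4 (6.67%) and at 7.11%. In 1001 bp around the 5′-most start the shares were 26.2% of the 65 genes and 18.5% of all genes, with 22.7% of the genes bound in all 4 libraries. Few of the translation factor peaks held the sequence at their centre, at a share near that of bound genes in general. The 6 sites are shown because they place the recognition sequence within the peaks. Each is 30 bases of GRCm38 along the gene's own strand, with the match in capitals.
Eef1e1: gagctgggccagAAGATGGcggcggccgcg
Eef2k: taggtgacgggAAGATGGggagcccgcgcg
Eif2a: ctttccgggacAAGATGGcgccgtccacac
Eif3b: aggaacttctaCCATCTTggacgcaactat
Eif4g2: gcggagccctctAAGATGGccgccgcccct
Eif5: atggcggcggcAAGATGGcggcgcggccgc
They lie at chr13:38658979-38659008, chr7:120843102-120843131, chr3:58526045-58526074, chr5:140419029-140419058, chr7:111082735-111082764 and chr12:111538570-111538599, in the order printed. In Eef1e1 and Eif2a the ATG of the match is the annotated start codon of the gene, as in 293 of the 1237 bound genes with a match (23.7%). In Eif3b the match is on the opposite strand. The match lay, relative to the peak centre along the gene (negative upstream, taken to the base of the match with the lower coordinate), at -13 bp in Eef2k, 12 bp in Eif5, -51 bp in Eif2a, -55 bp in Eif3b, -56 bp in Eif4g2 and -243 bp in Eef1e1. A match outside that central window is shown for Eif4a1, in the 250 bases before its RefSeq start (chr11:69672424-69672673, minus strand).
Eif4a1: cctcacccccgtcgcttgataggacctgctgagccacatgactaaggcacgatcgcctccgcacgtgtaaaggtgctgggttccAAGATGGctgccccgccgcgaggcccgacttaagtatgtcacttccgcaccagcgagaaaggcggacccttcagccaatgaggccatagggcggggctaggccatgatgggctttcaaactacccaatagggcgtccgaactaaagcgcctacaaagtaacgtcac
In these RefSeq promoters, which also hold 50 bases after the start, the sequence was present at 6 of the 49 translation factor genes in the table (12.2%) and at 7.27% of 15687 genes.

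WT and XistΔ/Δ did not differ detectably in how many translation factor genes were bound. The mean was 56.5 ± 2.12 genes in WT and 57.5 ± 3.54 in XistΔ/Δ (SD, n = 2), a difference of 1 gene, with 0 within replicate 1 and 2 within replicate 2. The mean of the median widths was 1433 ± 207 bp in WT and 1369 ± 381 bp in XistΔ/Δ, a difference of -64.0 bp, with -187 bp within replicate 1 and 59.0 bp within replicate 2. Both differences were smaller than the spread between replicates, but that spread also holds the difference in depth between replicate numbers. With 2 libraries per genotype the exact permutation test cannot give a p-value below 0.333.

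No translation factor gene had a peak in both WT libraries and in neither XistΔ/Δ library (background 0.0721%), and 1 had the opposite pattern (1.54%, background 0.207%). This gene was Eif2b3, the γ subunit of eIF2B. Its peak (chr4:117018869-117019704) was 501 bp wide in XistΔ/Δ replicate 1 and 823 bp in XistΔ/Δ replicate 2, covered 2 of its starts and was not called in WT. A width of 501 bp is the most frequent of the list, at the 12.0 percentile. Eif2b3 lost this pattern when all lists were limited to the first 9553 peaks in deposited order, the length of the shortest list.

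In the lists as deposited, more genes ranked higher than lower by peak width in XistΔ/Δ, among translation factor genes as among all genes. The percentile was higher in XistΔ/Δ within both replicate numbers at 17 of 59 genes (28.8%, background 32.6%) and lower within both at 6 (10.2%, background 15.9%). With lists of equal length the split turned over, to 10 of 56 higher (17.9%, background 24.3%) and 13 lower (23.2%, background 24.7%), so these counts give no direction. That cut follows the deposited order, whose meaning is not explained. Other rankings of the full lists kept more genes higher than lower, 23 against 6 by deposited order and 17 against 11 by summed width. The shares over all genes were not computed for these rankings. The median change of percentile at the 53 genes bound in all 4 libraries was 1.47 within replicate 1 and 1.15 within replicate 2, against 1.33 and 1.61 at all 7709 genes.

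**Figure D4:**
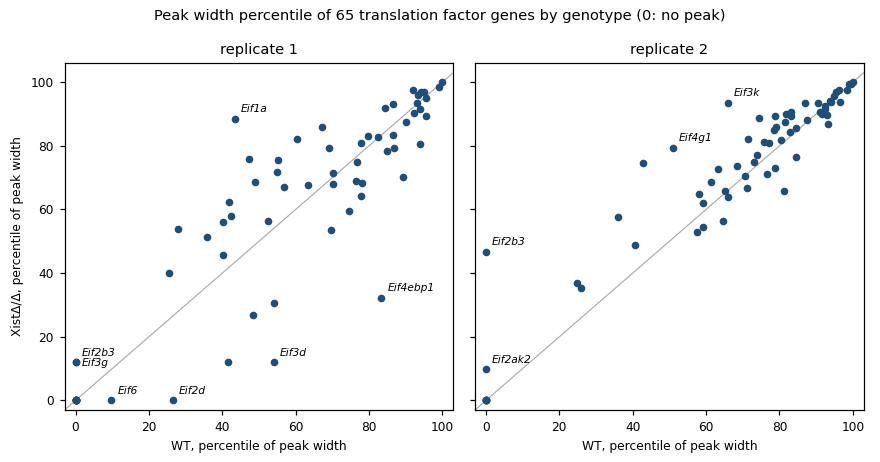
Percentile of peak width within the library for each of the 65 translation factor genes in WT (x axis) and XistΔ/Δ (y axis), within replicate 1 (left) and replicate 2 (right), with 0 for a gene without a peak and a grey line of equality. Points scatter around the line on both sides, more widely in the shallower replicate 1 libraries, and Eif2b3 stands at 0 in WT in both panels.

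Eif2b3 had the largest mean rise in rank, by 12.0 and 46.6 percentile points within replicates 1 and 2. Among genes bound in all 4 libraries, the largest rises within both replicate numbers were at Eif1a, Eif4g1, Eif3k and Eef1akmt1. Eif1a, a scanning factor, had 791 and 1564 bp in WT against 1441 and 1715 bp in XistΔ/Δ, a rise of 44.9 and 6.60 percentile points within replicates 1 and 2. In WT replicate 1 its promoter region was called as 2 peaks, and in the other libraries as 1. Eif4g1, the main scaffold of the cap complex, had 773 and 939 bp in WT against 763 and 1490 bp in XistΔ/Δ. Eif3k had 912 and 1219 bp in WT against 831 and 2266 bp in XistΔ/Δ, with 2 peaks in the first 3 libraries and 1 in the last. In those 3 libraries the peak nearest a start of Eif3k was the narrower one. It was 501 and 694 bp wide in WT and 754 bp in XistΔ/Δ replicate 1. Merged over the libraries, the region also covered a start of the neighbour Map4k1. In Eif4g1 and Eif3k a single library, XistΔ/Δ replicate 2, stood above the rest. Eef1akmt1 had 642 and 1408 bp in WT against 798 and 1355 bp in XistΔ/Δ. By the widest peak, the genotypes overlapped in Eif1a, Eif4g1, Eif3k and Eef1akmt1.

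Among genes bound in all 4 libraries, the largest falls within both replicate numbers were at Eif3i, Eif4a3, Eif2a and Eif4b. Eif4ebp1 and Eif3d had larger mean falls, but rose within replicate 2. Eif4b, which stimulates the eIF4A helicase, had 2257 and 2357 bp in WT against 1477 and 1803 bp in XistΔ/Δ, a difference of -667 bp with changes of -6.18 and -6.35 percentile points. The widths of Eif2a, given above, differed by -563.5 bp, with -13.2 and -1.65 percentile points. In Eif4b and Eif2a both XistΔ/Δ peaks were narrower than both WT peaks, which gave the smallest p the exact permutation test allows (two-sided p = 0.333). This held at 2 of the 53 genes bound in all 4 libraries (3.77%), against a background of 6.38%. The opposite, both XistΔ/Δ peaks wider than both WT peaks, held at 0 of the 53, against a background of 1.39%. Eif4a3, a helicase of the exon junction complex, had 1323 and 1793 bp in WT against 1022 and 1413 bp in XistΔ/Δ. Eif3i had 880 and 1335 bp in WT against 627 and 1269 bp in XistΔ/Δ. The exact permutation p-value was 0.667 for Eif4a3 and Eif3i and at least 0.667 for the 4 genes with a rise in rank.

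Other genes of the pathway, from lists of release, recycling, poly(A)-binding, regulatory, modifying and mitochondrial factors, were bound at a share close to that of the Eif and Eef genes. Of 46 such genes, 39 had a peak in all 4 libraries, 43 in at least 2 and 3 in none, against 37.1%, 48.4% and 48.3% of all genes. Within both replicate numbers 11 of the 43 ranked higher in XistΔ/Δ and 8 lower (background 32.6% and 15.9%). Their median mean percentile was 64.4, below the 69.5 of all genes bound in all 4 libraries. The 12 kinases, phosphatase subunits and other regulators were all bound in all 4 libraries, with a median of 80.7. Etf1, the release factor that reads stop codons, had the highest mean percentile of these genes, with 2305 and 2695 bp in WT against 1885 and 2982 bp in XistΔ/Δ. Ppp1r15b, a phosphatase subunit that reverses eIF2α phosphorylation, had 2920 and 3624 bp in WT against 1461 and 2721 bp in XistΔ/Δ. Tpt1, which encodes a protein that binds eEF1A, had 1851 and 2514 bp in WT against 1683 and 2204 bp in XistΔ/Δ. Of the 10 mitochondrial translation factor genes 6 were bound in all 4 libraries, with a median of 56.7.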

How the data were processed

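YY1 was measured by ChIP-seq in 4 libraries, 2 per genotype. Per the methods of the study and its processing notes, micrococcal nuclease was used to fragment the chromatin, and reads were trimmed with Trim Galore, aligned to mm10 with Bowtie2 (version 2.3.5.1), filtered on mapping quality with SAMtools (version 1.10) and cleared of duplicates. Per the file headers, the authors called peaks with HOMER (version 4.9.1) in each library separately, with a false discovery rate of 0.001, a tag density 4 fold above the surroundings, joining of neighbouring peaks of 500 bp, and no input library named, so peaks can also follow open chromatin and copy number. The tag threshold per peak was 22 and 33 in WT against 22 and 37 in XistΔ/Δ. The score in the deposited lists is 1 throughout and was not used.

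From the deposited positions, promoter peaks were found at 0 to 3000 bp from GENCODE M21 starts of the same build, with scripts in Python (version 3.11.15), NumPy (version 2.4.6) and SciPy (version 1.17.1). The gene's widest promoter peak was ranked among all peaks of its library, ties sharing their mean and 0 standing for no peak. Named genes are those without a peak, those with a peak in 1 to 3 libraries and those bound in 1 genotype. Also named are the 6 highest and 4 lowest by mean percentile among those bound in all 4. The 4 largest rises and 4 largest falls are among those bound in all 4 with the same direction within both replicate numbers. The rest are genes whose peaks cover no start, those with several regions, and the leading genes of each role. Widths were compared between genotypes by two-sided exact permutation tests at 18 genes. Sequences and promoters came from GRCm38 and RefSeq, with 49 of 65 genes in the promoter table. Code was tested on simulated data. Members and lists were chosen with earlier results of these data known. Nothing in the labels says which libraries came from separate mice, so tests measure the spread between libraries. Expression was not used here, so the labelled cell type was not checked against its markers. Replicate numbers follow the labels, from which those in the headers differ. Alternatives were other windows, starts, list lengths, ranks and sets of libraries.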

Additional observations from a re-analysis of the deposited data

How the results depend on the processing

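Of 52 recalculations that kept all 4 libraries, 45 moved by less than the spread between replicates or, for counts of genes, stayed within 1.5 times the count reported. Among them is a median centre of 61.5 bp with starts of protein-coding transcripts. The difference in bound genes with a replicate block is also among them, but its value is fixed by construction. So is the count of 39 genes bound in all 4 libraries where only CpG-rich starts were kept. That count is out of 44 genes, against 53 of 65, so it is not a like comparison. The other values were as follows. Limiting the window to peaks that cover a start set the covering share to 100%, by construction, against 97.4%, and using only the 5′-most start gave 95.0% and a median centre of 170.5 bp in place of 33.75 bp. Lists of equal length gave 0 genes bound only in XistΔ/Δ, 10 ranked higher and 13 lower, and ranking by summed width gave 11 lower. The cause was not tested.

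Leaving out each library in turn gave differences in bound genes from -1.5 to 3.5, 1 to 2 genes bound only in XistΔ/Δ, 0 to 2 only in WT, 31 to 38 ranked higher and 21 to 25 lower, since fewer libraries have to agree. Without WT replicate 2 or without XistΔ/Δ replicate 1 there were 2 genes bound only in XistΔ/Δ, and without XistΔ/Δ replicate 2 there were 2 only in WT. The median width difference ran from -333.25 to 205.25 bp. Of 72 differences in width at the named genes without 1 library, 22 took the other direction. Their ranges in bp were -10.0 to 161 for Eif4enif1, -850.5 to 618.5 for Eef1a1, -674 to 419 for Eif5, -328 to 174 for Eif4a1, -447 to 426 for Eif4a2, -216.5 to 166.5 for Eif3l, -279 to 165 for Eif3c, -564 to 89.0 for Eif3d, -207.5 to 90.5 for Eef1akmt3, -93.0 to 634 for Eif4g1, -234.5 to 1200.5 for Eif3k, -331.5 to 434.5 for Eef1akmt1 and -480.5 to 161.5 for Eif3i. Eif4b (-830 to -504 bp), Eif2a (-947 to -180.0 bp), Eif4a3, Eif4g2 and Eif1a kept their direction. The Eif4enif1 values refer to the wide region over the start of Sfi1, not to the peak over its own starts.

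With a replicate block the difference in bound genes is 1 by construction, since the mean within replicate numbers equals the pooled difference. With this block no width difference had a p-value below 0.5, the smallest possible (exact sign permutation). Deviations of same-numbered libraries correlated at 0.310 over 7709 genes and 0.0611 over the 53 translation factor genes, with only 2 pairs. Such libraries share a number and depth, and the main permutation tests did not treat them as pairs. Rank changes and their directions, however, were taken within replicate numbers. Depth limits what can be said of the 7 genes bound in 1 to 3 libraries, where a missing peak does not show that YY1 was absent.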

Other observations

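Of the X-linked genes with the same name stems, which the choice of autosomes left out, Eif1ax and Eif2s3x encode eIF1A and the γ subunit of eIF2. Eif1ax had promoter peaks of 1391 and 1464 bp in WT against 1321 and 1909 bp in XistΔ/Δ, at percentiles of 78.7, 75.5, 84.6 and 88.9. Eif2s3x had 1428 and 1769 bp in WT against 1398 and 2018 bp in XistΔ/Δ, at percentiles of 80.1, 84.0, 87.1 and 90.6. The widths of the genotypes overlapped at both genes. Both genes ranked higher in XistΔ/Δ within both replicate numbers, as did 32.6% of autosomal genes with a peak in at least 2 libraries. Within replicates 1 and 2 taken singly, 55.1% and 63.2% of autosomal genes bound in all 4 libraries ranked higher. Their median change was 1.33 and 1.61 percentile points. The lists differ in length, and the part of this in the rise was not tested. The paper lists Eif2s3x among X-linked genes upregulated after Xist loss in each progenitor population it profiled. For such genes it reports more frequent gains of promoter YY1 in Lin- cells than for unchanged active X-linked genes.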
